A study of Rattus norvegicus with 83 samples.

Results

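The 10 libraries labelled PD16 (pup day 16) and methimazole 16 mg/kg body weight per day, called MMI16 here, were compared with the 10 libraries labelled PD16 and corn oil, the vehicle. They are 20 of the 83 libraries of the study and were taken by their labels. Each library is RNA of offspring of a Sprague-Dawley rat dam that received methimazole in corn oil, or corn oil alone. Dams were dosed once a day by gavage from gestational day 7 onwards, with birth expected on gestational day 23. The labels give pup day 22 as the end of dosing, and the design text gives pup day 16. The libraries labelled gestational day 21 (GD21) of the same treatments, 6 MMI16 and 6 vehicle, and the 10 libraries labelled PD16 and methimazole 8 mg/kg (MMI8) are used beside them. RNA was kept at an integrity score above 6.8 and measured by bulk RNA barcoding and sequencing, which tags the 3′ end of polyadenylated transcripts. Levels are given in CPM, the count of a gene scaled to the library total. A called gene is one whose p, after Benjamini-Hochberg adjustment, was under 0.05 in edgeR's quasi-likelihood test over the 4906 genes tested, and all adjusted p-values below come from that test unless another is named. The labels do not say which libraries share a litter, so p-values rest on the spread between libraries, which may be smaller than that between litters.

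Methimazole blocks thyroid peroxidase, the enzyme of the thyroid gland that couples iodine to thyroglobulin, and so lowers the thyroid hormones of dam and offspring. Thyroid hormone acts through the nuclear receptors encoded by Thra and Thrb, which bind DNA and turn target genes up or down. In the newborn rat it times the maturation of many tissues, the brain, gonads and adrenal gland among them. The purpose of the study, per its title and design text, was to describe what such exposure does to the developing testis.

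The tissue label was checked first, and the data went against it. The testis genes Amh (Sertoli cells), Insl3 (Leydig cells), Ddx4 (germ cells) and Sycp3 (meiotic cells) had 1 count each over the 10 MMI16 libraries and 1 count each over the 10 vehicle libraries. Of the list of Sertoli, Leydig and germ cell genes Inha alone passed the filter, an inhibin subunit gene that the adrenal cortex also expresses (58.1, 194 and 321 CPM in MMI16 and 80.2, 241 and 296 CPM in vehicle). Cyp21a1, the 21-hydroxylase of the adrenal cortex, had 1860, 3726 and 4566 CPM (lowest, median, highest) in MMI16 and 2247, 3088 and 3533 CPM in vehicle. Pnmt, the adrenaline-forming enzyme of the adrenal medulla, had 77.0, 175 and 400.5 CPM in MMI16 and 167, 208 and 288 CPM in vehicle. Hbe1, Hbz and Hbg1, globins of the embryo, took 16.4 ± 4.28% of globin counts in MMI16 and 14.8 ± 2.51% in vehicle (SD, n = 10 each), a difference of 1.61 percentage points (two-sided permutation test, p = 0.315); without MMI16 library 9, described below, it was 2.45 points (p = 0.0969). In GD21 MMI16 libraries this share had a median of 0.168% and in GD21 vehicle libraries of 0.157%. It was 0.180% and 0.130% at the median in libraries labelled PD16 and amitrole 25 and 50 mg/kg, which share the fit with those compared. The share therefore went against the PD16 label in MMI16 and vehicle libraries alike, and labels alone name the libraries below. An effect of methimazole and a difference in age between the groups cannot be told apart.

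Total counts ran over 202270, 487567.5 and 1186973 in MMI16 (lowest, median, highest) and over 409709, 627048.5 and 1052882 in vehicle, with a difference of means of -115701 (two-sided permutation test, p = 0.303), or -189212 without MMI16 library 9 (p = 0.0364). At the MMI16 median 1 count is 2.05 CPM, and at the vehicle median 1.59 CPM. MMI16 library 9, the deepest, stood apart. Its liver genes summed to 1688 CPM, against 50.5 to 329 CPM in the other 9 MMI16 libraries and 59.7 to 339 CPM in vehicle. Its adrenal cortex genes summed to 7610 CPM, the lowest of the 20 libraries, and its ribosomal protein genes to 312771 CPM, the highest. MMI16 library 10 had the lowest total. No 2 libraries of a group were copies, since the lowest chi-square per degree of freedom over 90 pairs was 1.734.

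MMI16 libraries differed from vehicle almost wholly by falls. Of 4906 genes tested 356 were lower in MMI16 (7.26%) and 42 were higher (0.856%), or 398 in either direction (8.11%), while the median log2 fold change of all tested genes was 0.07. The count of rises moved more with the processing than that of falls. A fit of the 20 compared libraries alone gave 14 rises and 324 falls, and a fit with no filter on low counts gave 27 rises and 427 falls. The falls were deep. At least 2-fold falls were seen in 270 of the 356 (5.5% of the genes tested), falls of 4-fold or more in 128 and of 8-fold or more in 25, and the median fall was 3.10-fold. The rises were shallow, with a median of 1.52-fold, and 3 genes rose at least 2-fold (0.0611%). These were Pnn, Oxsr1 and Ccdc59, the last named after its values were seen.

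**Figure D1:**
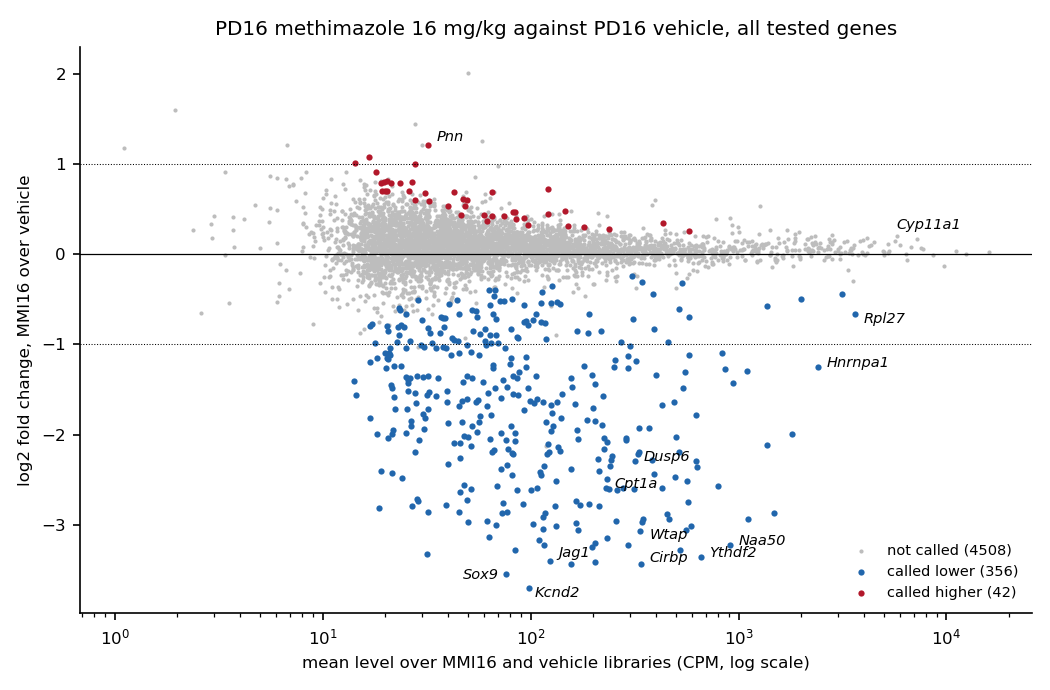
Log2 fold change of MMI16 over vehicle (y axis) against the mean level over both groups (x axis, CPM, log scale) for the 4906 genes tested at PD16; 356 genes called lower are blue, 42 called higher are red, and dotted lines mark 2-fold. Called falls stand at low and high levels alike, the deepest being Kcnd2 at -3.70, and no called rise goes beyond 1.21.

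Of 272 tested genes with a log2 fold change of -1 or lower, 270 were called, against 74 of 112 between -1 and -0.5 and 12 of 1304 between -0.5 and 0. On the other side, 3 of 10 genes with a log2 fold change of 1 or higher were called, and 17 of 3049 between 0 and 0.5. The falls were spread over all levels of expression. In 5 equal classes of the tested genes by mean level, from low to high, 6.42%, 5.4%, 7.95%, 8.87% and 7.65% were called lower.

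In 188 of the 356 lower genes every MMI16 library lay below every vehicle library (3.83% of all tested genes did so), and this held for all 25 genes that fell at least 8-fold and for 120 of the 128 that fell at least 4-fold. In 1 gene, Rpusd4, every MMI16 library lay above every vehicle library (0.0204%). Rpusd4, a pseudouridine synthase gene named after its values were seen, had 34.5, 37.6 and 57.2 CPM in MMI16 and 17.6, 24.8 and 33.2 CPM in vehicle.

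The largest falls were in genes of unlike function. The 14 largest, among genes that averaged at least 20 CPM in either group, had log2 fold changes of -3.70 to -3.22, and in none of them did the groups overlap. They are given here by role, from the nucleus outwards to the cell surface.

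**Figure D2:**
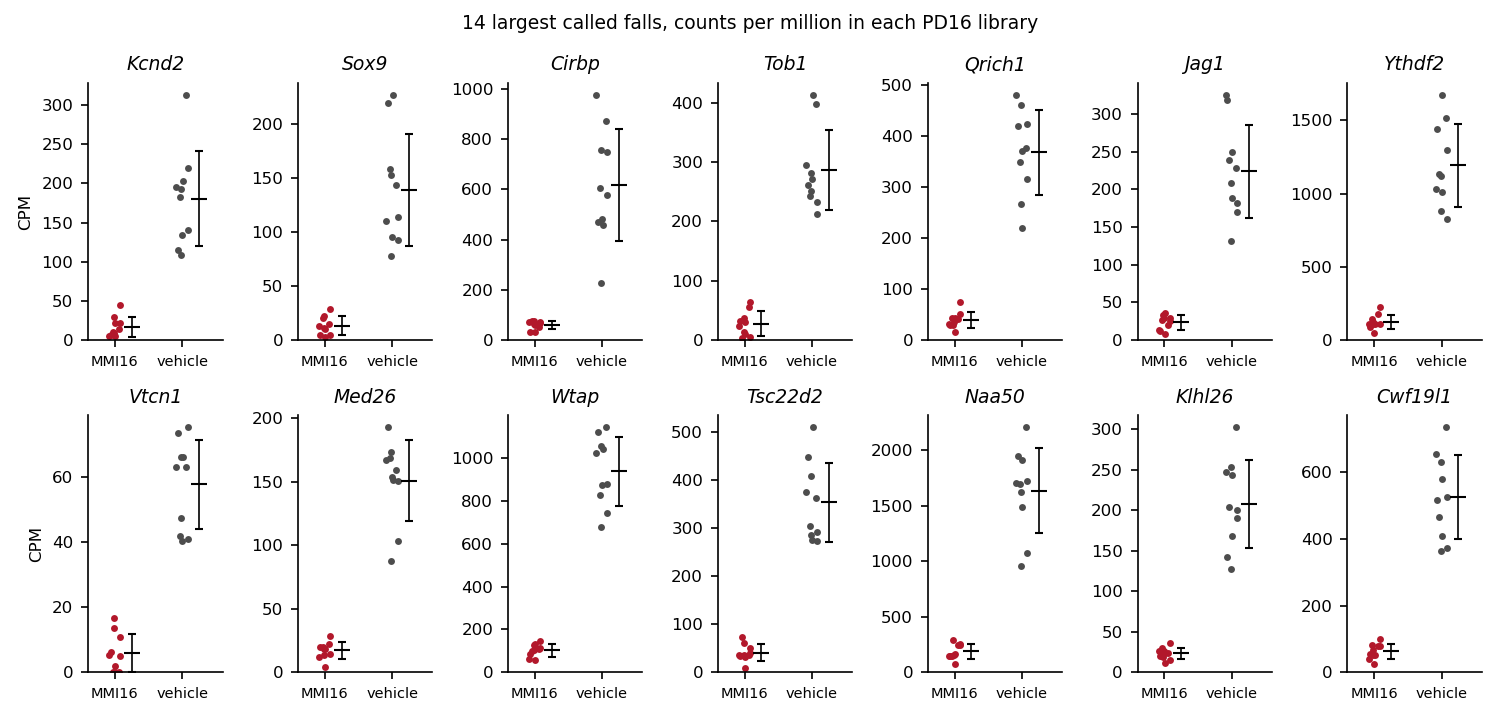
Level (y axis, CPM, linear, from 0) of the 14 largest called falls in each of 10 MMI16 libraries (red, left) and 10 vehicle libraries (grey, right), with the mean and SD as bars. In every panel all red points lie below all grey points.

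Sox9, a transcription factor of many progenitor cells, had 2.53, 12.5 and 28.9 CPM in MMI16 (lowest, median, highest) and 77.8, 129 and 227 CPM in vehicle. The highest MMI16 library was thus below the lowest vehicle library, and the log2 fold change was -3.55 (SE 0.24, adjusted p = 3.48e-20). Qrich1, a transcriptional regulator of the response to unfolded protein, had 16.0, 39.0 and 74.2 CPM in MMI16 and 221, 374 and 481 CPM in vehicle (log2 fold change -3.41, SE 0.16, adjusted p = 2.36e-27). Med26, a subunit of the Mediator complex that joins transcription factors to RNA polymerase II, had 4.21, 18.5 and 28.9 CPM in MMI16 and 87.5, 156 and 193 CPM in vehicle (log2 fold change -3.28, SE 0.20). Tsc22d2, of the TSC22 family of transcription regulators, had 10.1, 36.6 and 74.1 CPM in MMI16 and 274, 333 and 510 CPM in vehicle (log2 fold change -3.25, SE 0.18). In all 4 genes every MMI16 library was below every vehicle library.

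Several of the largest falls encode proteins that act on RNA. Wtap, a subunit of the complex that writes N6-methyladenosine into mRNA, had 55.6, 106 and 148 CPM in MMI16 and 675, 950.2 and 1143 CPM in vehicle. At -3.27 on the log2 scale (SE 0.13, adjusted p = 1.23e-30) it had the smallest adjusted p of the named genes. Ythdf2, which binds N6-methyladenosine and speeds the decay of the mRNA that carries it, had 50.5, 113 and 228 CPM in MMI16 and 824, 1125 and 1674 CPM in vehicle (log2 fold change -3.35, SE 0.17). Cirbp, the cold-inducible RNA-binding protein, had 30.9, 67.7 and 77.5 CPM in MMI16 and 228, 592 and 975 CPM in vehicle (log2 fold change -3.43, SE 0.23). Tob1, an antiproliferative protein that recruits the CCR4-NOT deadenylase to mRNA, had 3.37, 27.4 and 65.0 CPM in MMI16 and 212, 266 and 412 CPM in vehicle (log2 fold change -3.43, SE 0.21). Cwf19l1, a relative of a yeast splicing factor, had 24.4, 60.2 and 101 CPM in MMI16 and 362, 519.8 and 734 CPM in vehicle (log2 fold change -3.22, SE 0.16). In all 5 the highest MMI16 library was below the lowest vehicle library.

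Among genes of protein modification, Naa50, the catalytic subunit of an N-terminal acetyltransferase, had 73.3, 160.4 and 294 CPM in MMI16 and 955, 1700 and 2205 CPM in vehicle (log2 fold change -3.22, SE 0.16). Klhl26, of the kelch-like family whose members serve as substrate adaptors of cullin ubiquitin ligases, had 11.8, 24.4 and 36.1 CPM in MMI16 and 128, 203 and 303 CPM in vehicle (log2 fold change -3.22, SE 0.20).

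The remaining 3 act at the cell surface. Jag1, a ligand that activates Notch receptors on neighbouring cells, had 8.42, 26.1 and 36.6 CPM in MMI16 and 132, 218 and 325 CPM in vehicle (log2 fold change -3.40, SE 0.21, adjusted p = 1.4e-21). Kcnd2, the pore subunit of a fast-inactivating potassium channel of excitable cells, had the largest fall, with 5.41, 12.4 and 44.5 CPM in MMI16 and 108, 188 and 313 CPM in vehicle (log2 fold change -3.70, SE 0.24). Vtcn1, an inhibitory ligand of T cells, had 0, 5.18 and 16.6 CPM in MMI16 and 40.4, 62.9 and 75.0 CPM in vehicle (log2 fold change -3.33, SE 0.28). In bulk RNA, fewer cells that express a gene and less RNA per cell cannot be told apart.

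The promoters of the falling genes were read for shared letters. RefSeq windows of 250 bases before to 50 after the start (build GRCr8) matched 216 of the 270 genes that fell at least 2-fold and 4052 of all 4906 tested; Sox9 had no entry. The windows of Jag1, and of the 2 named falls with the smallest adjusted p that have one (Wtap and Nfe2l1), are printed to show what such promoters look like, with the letters GGGCGG and CCAAT of either strand in capitals.

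Jag1 (GRCr8, chr3:144894834-144895133, minus strand): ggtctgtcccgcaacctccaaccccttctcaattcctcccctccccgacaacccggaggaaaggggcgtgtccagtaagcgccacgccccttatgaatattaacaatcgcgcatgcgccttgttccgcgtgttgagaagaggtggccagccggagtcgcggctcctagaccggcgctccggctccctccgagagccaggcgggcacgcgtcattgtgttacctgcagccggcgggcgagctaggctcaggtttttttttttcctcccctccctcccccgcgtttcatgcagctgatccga
Wtap (GRCr8, chr1:50070723-50071022, plus strand): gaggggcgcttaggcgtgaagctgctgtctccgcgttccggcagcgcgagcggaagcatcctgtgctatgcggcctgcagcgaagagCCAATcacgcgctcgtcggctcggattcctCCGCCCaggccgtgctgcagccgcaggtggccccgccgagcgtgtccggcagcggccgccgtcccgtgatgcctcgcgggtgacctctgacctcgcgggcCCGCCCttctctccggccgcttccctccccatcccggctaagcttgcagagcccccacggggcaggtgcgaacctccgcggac
Nfe2l1 (GRCr8, chr10:82309326-82309625, minus strand): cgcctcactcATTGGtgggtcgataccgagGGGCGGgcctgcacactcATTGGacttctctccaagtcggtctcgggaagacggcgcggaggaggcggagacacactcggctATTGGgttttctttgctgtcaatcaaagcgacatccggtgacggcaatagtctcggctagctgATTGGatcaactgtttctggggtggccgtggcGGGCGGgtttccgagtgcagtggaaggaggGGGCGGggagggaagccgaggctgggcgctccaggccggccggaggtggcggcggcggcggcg

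The letters differed between these 3. Jag1 had 0 matches to either motif, Wtap had 2 to GGGCGG and 1 to CCAAT, and Nfe2l1 had 3 and 4. The 216 windows had a median GC content of 64.7% (quartiles 57.3 and 70.4%), against 60.3% (55 and 66%) in all 4052, with 26 against 21 CpG dinucleotides at the median. GGGCGG, counted on both strands, stood in 73.1% of the 216 and in 65.1% of all, and CCAAT in 44.9% and 40.4%. TATAAA was in 6.48% and 7.38%, CACGTG in 6.02% and 10.1%, TGACGTCA in 3.7% and 3.48%, TGACTCA in 4.17% and 3.5%, and GGAAGT in 26.9% and 32%. AGGTCA, the half-site letters of many nuclear receptors including those of thyroid hormone, was in 8.8% of the 216 and in 12% of all. None of these motifs contains another, and a match is a run of letters, not a site shown to be bound.

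The falling genes were next described by pathway, with 29 lists of which 16 are pathways or complexes and 13 are cell type markers. Of the 356 lower genes 33 were in any list and 323 in none, and 9.27% of the lower genes against 7.97% of all tested genes were list members. The lists thus cover a small part of the falls. They were chosen with earlier results of these data known, which favours called members. The 7.26% of all genes called lower and the 0.856% called higher stand beside their counts as a description only.

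**Figure D3:**
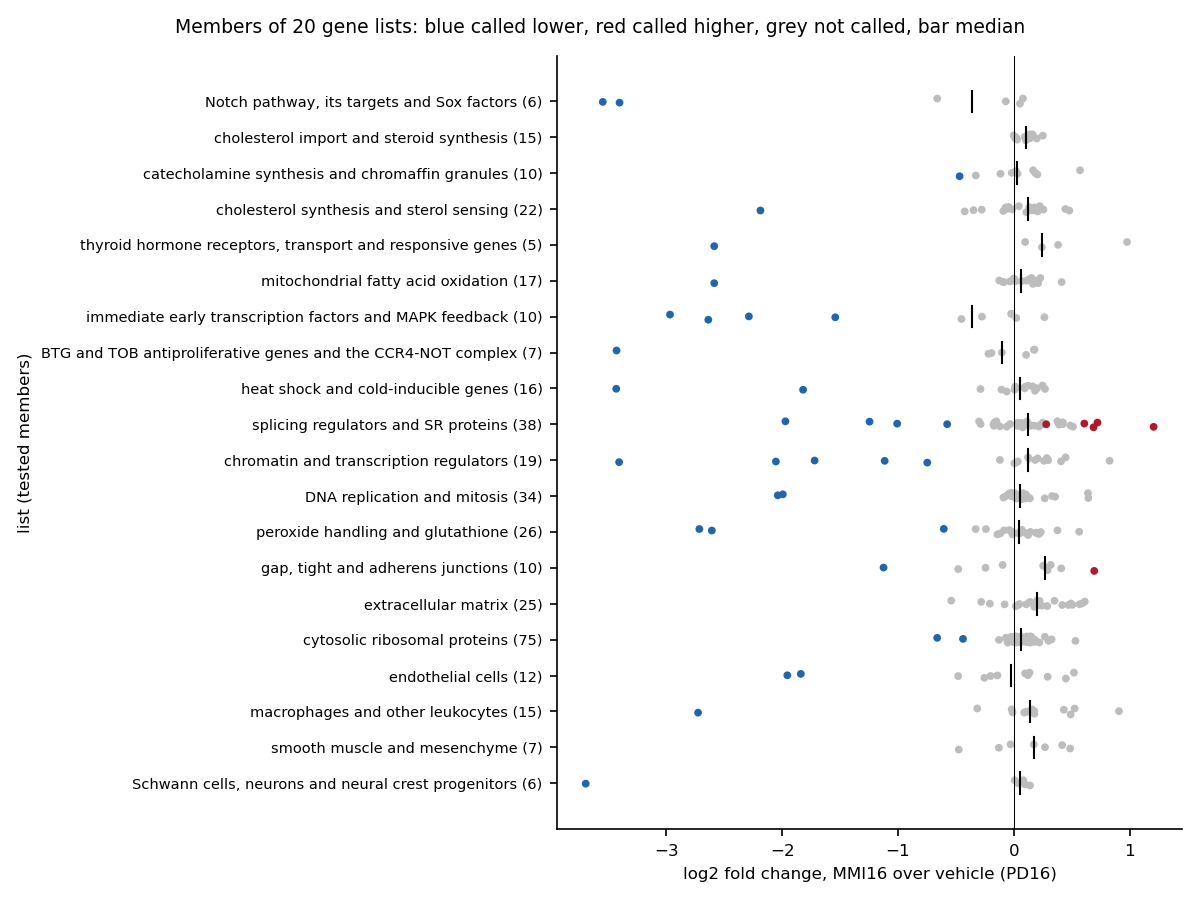
Log2 fold change of MMI16 over vehicle (x axis) of the tested members of 20 lists (y axis, number tested in brackets); blue points were called lower, red higher and grey not called, and black bars are list medians. The medians of the lists lie between -0.37 and 0.27, and single members stand far to the left of the rest of their list.

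Of the Notch pathway and Sox factors 6 of 31 members were tested, of which Sox9 and Jag1 fell and 0 rose. Its median log2 fold change was -0.37, against 0.07 over all genes. Its other 4 tested members were not called. Without Sox9 and Jag1 the list summed to 121 to 341 CPM in MMI16 and 163 to 270.5 CPM in vehicle, so the groups overlapped in the rest of the list.

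The list of immediate early transcription factors and MAPK feedback genes had 10 tested members, and 4 fell. Jund, a subunit of the AP-1 transcription factor, had 43.8, 81.0 and 124 CPM in MMI16 and 394, 604 and 815 CPM in vehicle (log2 fold change -2.97, SE 0.17, adjusted p = 8.92e-22). Dusp6, a phosphatase that switches off the kinase ERK, had 74.1, 113 and 157 CPM in MMI16 and 455.5, 515 and 624 CPM in vehicle (log2 fold change -2.29, SE 0.14). Dusp10, a phosphatase of the stress kinases JNK and p38, had 0, 14.9 and 24.7 CPM in MMI16 and 45.8, 83.0 and 112 CPM in vehicle (log2 fold change -2.64, SE 0.24). Zfp36l1, which marks mRNA with AU-rich elements for decay, was lower by the same test, with -1.54 on the log2 scale (SE 0.20, adjusted p = 5.24e-09). The list median was -0.36. Without these 4 genes the list summed to 249 to 341 CPM in MMI16 and 248 to 338 CPM in vehicle, nearly the same range.

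Splicing regulators changed in both directions, with 5 of 38 tested members higher and 4 lower and a median of 0.12. Hnrnpa1, which binds exons and splice sites and shuttles mRNA, had 1016, 1572 and 1687 CPM in MMI16 and 2203, 3582 and 3982 CPM in vehicle (log2 fold change -1.25, SE 0.09, adjusted p = 3.34e-19). No MMI16 library reached the lowest vehicle library. Srsf9, an SR protein, had 12.2, 22.1 and 36.1 CPM in MMI16 and 49.8, 85.1 and 127 CPM in vehicle (log2 fold change -1.97, SE 0.16). Hnrnpk fell by 0.58 on the log2 scale (SE 0.09, adjusted p = 7.18e-07). The members that rose were Pnn (1.21), Srrm2 (0.72), Hnrnpd (0.69), Pnisr (0.61) and Rbm39 (0.28), all of them nuclear RNA-binding or speckle proteins. Pnn, Srrm2 and Hnrnpd were highest in MMI16 library 9 or 10, and the groups overlapped in all 5. Without library 9 only 1 of the 38 was called higher, and without MMI16 library 32 there were 8. Hnrnpa1 has near-identical copies in rodent genomes, and reads shared with them were not separated here.

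Of 19 tested chromatin and transcription regulators 5 fell and 0 rose, with a list median of 0.12. They were Qrich1, described above, the histone acetyltransferase gene Crebbp (32.0, 67.7 and 100.1 CPM in MMI16 and 168, 225 and 564 CPM in vehicle; log2 fold change -2.05, SE 0.18), the remodeller genes Chd7 (-1.72) and Smarca2 (-0.75, adjusted p = 1.62e-06), and the DNA methyltransferase gene Dnmt3a (-1.11, adjusted p = 1.69e-05). Of 16 heat shock and cold-inducible genes Cirbp and Hsph1 fell. Hsph1, a nucleotide exchange factor of Hsp70, had 32.0, 64.6 and 148 CPM in MMI16 and 109, 226 and 311 CPM in vehicle, with an overlap through MMI16 library 10 (log2 fold change -1.82, SE 0.21, adjusted p = 1.79e-10). Of 7 tested BTG, TOB and CCR4-NOT genes Tob1 alone was called, and the list median was -0.10.

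Of 26 genes of peroxide handling and glutathione 3 fell and 0 rose, with a list median of 0.05. Nfe2l1, a transcription factor of proteasome and antioxidant genes, had 49.7, 97.6 and 130 CPM in MMI16 and 350, 539 and 763 CPM in vehicle (log2 fold change -2.61, SE 0.12, adjusted p = 2.21e-27). Gsr, glutathione reductase, had 1.54, 7.43 and 19.8 CPM in MMI16 and 21.6, 45.7 and 75.7 CPM in vehicle (log2 fold change -2.71, SE 0.26). Sod1, the cytosolic superoxide dismutase, fell by 0.60 (SE 0.17, adjusted p = 0.0138), and its groups overlapped. Cat, catalase, had 89.0, 118 and 142 CPM in MMI16 and 63.9, 104 and 141 CPM in vehicle and was not called (log2 fold change 0.14, SE 0.13, adjusted p = 0.686).

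Of 34 genes of DNA replication and mitosis 2 fell, and the list median was 0.06. Mcm4, a subunit of the replicative helicase, had 61.5, 111 and 181 CPM in MMI16 and 303, 455 and 626 CPM in vehicle (log2 fold change -2.04, SE 0.12, adjusted p = 8.59e-22). Rrm2, the subunit of ribonucleotide reductase that limits nucleotide supply, had 303, 752 and 1079 CPM in MMI16 and 980, 3043 and 5023 CPM in vehicle, with an overlap at one end (log2 fold change -1.99, SE 0.22). Mki67, a marker of cycling cells, had 32.5, 53.5 and 198 CPM in MMI16 and 32.3, 52.7 and 82.0 CPM in vehicle, where the highest value was that of MMI16 library 10 (log2 fold change 0.33, SE 0.18, adjusted p = 0.392).

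In lipid metabolism single genes fell out of lists that otherwise did not pass the test. Cpt1a, which passes fatty acids to the mitochondrion, had 22.7, 63.3 and 108 CPM in MMI16 and 201, 370 and 707 CPM in vehicle (log2 fold change -2.59, SE 0.23, adjusted p = 5.72e-14). It was the one called member of 17 genes of fatty acid oxidation (list median 0.07) and of 5 tested genes of thyroid hormone receptors, transport and response (list median 0.24). Srebf2, the transcription factor that turns on cholesterol synthesis when sterol is low, had 24.4, 43.0 and 129 CPM in MMI16 and 94.3, 171 and 338 CPM in vehicle (log2 fold change -2.19, SE 0.20, adjusted p = 3.88e-14). It was the one called member of 22 genes of cholesterol synthesis and sterol sensing, whose median was 0.12 and whose summed level ran over 1955 to 6391 CPM in MMI16 and 1635 to 7191 CPM in vehicle.

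The thyroid hormone genes themselves were mostly too low to test, with 5 of 24 passing the filter. Me1, a malic enzyme gene that thyroid hormone turns on in rat liver, is named after its values were seen. It had 50.6, 68.4 and 272 CPM in MMI16 and 19.4, 38.6 and 69.4 CPM in vehicle, with overlapping groups (log2 fold change 0.98, SE 0.33, adjusted p = 0.0631). DESeq2 called it higher (1.04, SE 0.31, adjusted p = 0.012), as did edgeR on the 20 compared libraries alone (adjusted p = 0.0211). Thra, the receptor gene, had 2.07, 7.46 and 24.7 CPM in MMI16 and 4.75, 8.58 and 26.2 CPM in vehicle. Klf9, a direct target of the hormone in other tissues, had 0, 4.10 and 9.89 CPM in MMI16 and 0, 4.37 and 6.94 CPM in vehicle. Thrb had 6 counts over all MMI16 libraries and 14 over all vehicle libraries, and Hr, another target, had 0 and 1. These 4 genes did not pass the filter, so a difference in them was not tested.

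Steroid genes, among the most abundant in these libraries, did not differ detectably. Of 15 tested genes of cholesterol import and steroid synthesis 0 were called, and their log2 fold changes lay between -0.0015 and 0.25 with a median of 0.10; edgeR gave 0 at an unadjusted p under 0.05 as well, and DESeq2 called 0. Star, which moves cholesterol into the mitochondrion, had 169, 363 and 588 CPM in MMI16 and 225, 370.4 and 482 CPM in vehicle (log2 fold change 0.01, 95% interval -0.35 to 0.37). Cyp11a1, which cuts the cholesterol side chain, had 2713, 7846 and 11437 CPM in MMI16 and 5636, 6029 and 8946 CPM in vehicle (0.16, -0.14 to 0.47). Cyp21a1 had a log2 fold change of 0.14 (-0.28 to 0.56) and Cyp11b1, the 11-hydroxylase that forms corticosterone, of 0.20 (-0.33 to 0.73). These intervals include changes of up to 1.66-fold for Cyp11b1. Over the 12 other settings and the 20 fits without 1 library, 0 to 1 genes of the steroid list were called lower and 0 higher. Mc2r, an adrenal cortex marker named after its values were seen, did not pass the filter and was not tested. It had 2.03, 8.85 and 19.8 CPM in MMI16 and 9.50, 15.8 and 23.5 CPM in vehicle.

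Of 10 catecholamine genes Ddc, the decarboxylase that forms dopamine, fell by 0.47 (SE 0.15, adjusted p = 0.0369), with overlapping groups at 32.9, 55.9 and 107 CPM in MMI16 and 47.2, 83.6 and 97.5 CPM in vehicle. Ddc was not called in 13 of the 20 fits that left out 1 library, MMI16 library 9 among them (-0.42, adjusted p = 0.0953). Th, tyrosine hydroxylase, was at 0.19 on the log2 scale (SE 0.19, adjusted p = 0.743) and Pnmt at -0.33 (SE 0.19, adjusted p = 0.445). The medulla markers summed to 773 to 1429 CPM in MMI16 and 792 to 1040 CPM in vehicle.

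Of 75 tested ribosomal protein genes 0 rose and 2 fell, and the list median was 0.06. Rpl27 had 2037, 2704 and 4301 CPM in MMI16 and 4205, 4430 and 4737 CPM in vehicle, so that MMI16 library 9 alone reached the vehicle range (log2 fold change -0.66, SE 0.13, adjusted p = 3.81e-05). Rps25 fell by 0.44 (SE 0.13, adjusted p = 0.0129). Both have processed copies in the rat genome, whose reads were not separated here. Of 25 tested extracellular matrix genes edgeR and DESeq2 called 0 (median 0.20; 5 at an unadjusted p under 0.05), and of 10 junction genes Gja1, the gap junction protein connexin 43, fell by 1.12 (SE 0.16, adjusted p = 8.63e-08) while Cgnl1, a tight junction protein, rose by 0.69 (SE 0.22, adjusted p = 0.0323). Cgnl1 was not called in 9 of those 20 fits, such as that without MMI16 library 9 (0.64, adjusted p = 0.0879).

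Among markers of other cell types single genes fell far while most of each list was not called. Kdr, a receptor for vascular endothelial growth factor, had 49.7, 81.5 and 153 CPM in MMI16 and 221, 291 and 332 CPM in vehicle (log2 fold change -1.84, SE 0.12, adjusted p = 7.39e-21). Pecam1, an adhesion molecule of endothelium, had 38.6, 46.8 and 77.0 CPM in MMI16 and 143, 188 and 288 CPM in vehicle (-1.96, SE 0.15). These were 2 of 12 tested endothelial genes, whose median was -0.02, and the other 10 were not called. Mrc1, the mannose receptor of tissue macrophages, had 7.22, 13.0 and 16.8 CPM in MMI16 and 71.3, 86.0 and 104 CPM in vehicle (-2.72, SE 0.18, adjusted p = 3.14e-20). It was the one called gene of 15 macrophage and leukocyte genes, whose median was 0.14. The list summed to 241 to 401 CPM in MMI16 and 314 to 437 CPM in vehicle. Without Mrc1 it summed to 227 to 389 CPM in MMI16 and 220 to 342 CPM in vehicle, so the groups overlapped in the rest. Of 7 smooth muscle and mesenchyme genes edgeR and DESeq2 called 0 (median 0.17; 1 at an unadjusted p under 0.05), and of 6 genes of Schwann cells, neurons and progenitors Kcnd2 alone was (median 0.06). The part of cell make-up in the falls was not tested.

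Liver genes were higher in the fitted values without passing the test. The summed level of the list had a lower median in MMI16 (89.8 CPM) than in vehicle (136 CPM). The 5 tested members had a median log2 fold change of 1.25, and edgeR and DESeq2 called 0 (0 at an unadjusted p under 0.05 in edgeR). Alb, the albumin gene, had 507 CPM in MMI16 library 9 and at most 71.3 CPM in the other 9 MMI16 libraries, against 5.55 to 61.9 CPM in vehicle (log2 fold change 2.01, SE 1.17, adjusted p = 0.449). Kidney markers summed to at most 11.0 CPM in MMI16 and 8.67 CPM in vehicle. Without library 9 there were 368 lower and 32 higher genes, with 270 at least 2-fold lower.

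The rises were smaller than the falls and overlapped between the groups in each of the 8 largest.

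**Figure D4:**
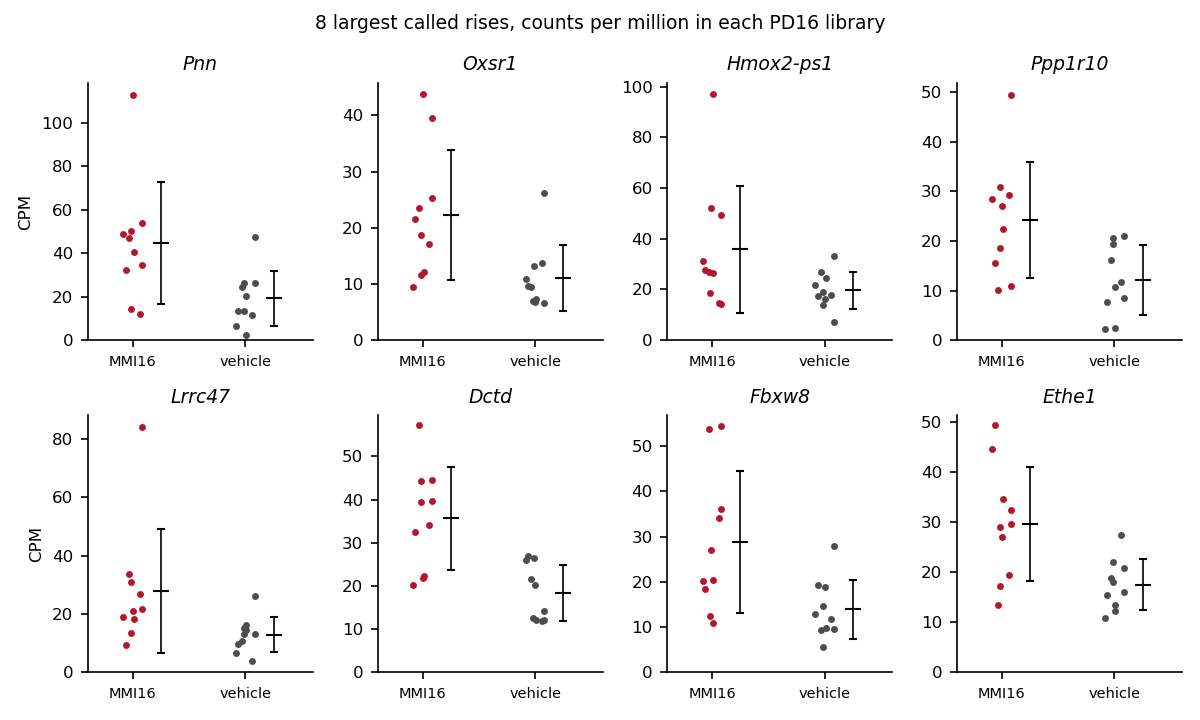
Level (y axis, CPM, linear, from 0) of the 8 largest called rises in each of 10 MMI16 libraries (red, left) and 10 vehicle libraries (grey, right), with the mean and SD as bars. Red and grey points overlap in every panel, and in Pnn, Hmox2-ps1 and Lrrc47 a single MMI16 library lies far above the others.

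Dctd, the deaminase that makes dUMP for thymidylate synthesis, had 20.3, 36.7 and 57.2 CPM in MMI16 and 11.8, 17.2 and 27.0 CPM in vehicle. All 10 MMI16 libraries were above the vehicle mean, and the log2 fold change was 0.80 (SE 0.20, adjusted p = 0.00258). Oxsr1, a kinase that regulates chloride cotransporters, had 9.47, 20.1 and 43.8 CPM in MMI16 and 6.65, 9.53 and 26.2 CPM in vehicle (log2 fold change 1.07, SE 0.29, adjusted p = 0.00719). Pnn, a nuclear speckle and desmosome protein, had 12.2, 43.9 and 113 CPM in MMI16 and 2.44, 16.8 and 47.5 CPM in vehicle (1.21, SE 0.35, adjusted p = 0.016). Ethe1, a mitochondrial enzyme of sulfide disposal, rose by 0.78 (SE 0.22) and Ppp1r10, a nuclear partner of protein phosphatase 1, of 0.91 (SE 0.26). The remaining rises were Hmox2-ps1, a pseudogene (1.00), Lrrc47 (0.81) and Fbxw8, a subunit of a cullin ubiquitin ligase (0.79).

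The 8 largest rises were above the vehicle mean in 7 to 10 of the 10 MMI16 libraries, and 5 of them lost their call without library 9. MMI16 library 10, the shallowest, was the highest MMI16 library in 17 of the 42 called rises (40.5%) and in 28.6% of all tested genes. Without library 9, the log2 fold change of Pnn was 0.68 (adjusted p = 0.288), of Oxsr1 0.63 (adjusted p = 0.222), of Hmox2-ps1 0.41 (adjusted p = 0.515), of Ppp1r10 0.79 (adjusted p = 0.0628) and of Lrrc47 0.76 (adjusted p = 0.0636). Dctd remained called without any single library, with a highest adjusted p of 0.00888.

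The same dose was then read in the libraries labelled GD21, which the PD16 comparison does not use, and the falls were not seen there. Since the globin share went against the PD16 label, PD16 and GD21 are labels only below, and their order in age was not tested. edgeR called 0 of 6236 genes for MMI16 against vehicle at GD21 (0%), with 210 genes at an unadjusted p under 0.05, and DESeq2 called 0 as well. The 270 genes that fell at least 2-fold at PD16 had a median log2 fold change of -0.01 at GD21 (quartiles -0.13 and 0.13, range -0.68 to 0.63). Jag1, for example, averaged 95.5 ± 43.8 CPM in GD21 MMI16 and 72.3 ± 14.7 CPM in GD21 vehicle, and Ythdf2 508 ± 194 and 484 ± 136 CPM (SD, n = 6 each).

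A test of the difference between the stages called 321 genes whose log2 fold change was lower at PD16 than at GD21 (5.11% of 6287) and 7 in which it was higher (0.111%). Of the 37 named genes called lower at PD16, 34 were called in this test, with differences between -0.49 (Hnrnpk) and -3.76 (Jag1). The exceptions were Ddc, Sod1 and Rps25. The genes were taken here for being called at PD16, and the test uses the same PD16 libraries, which favours such differences. For the 9 named genes called higher at PD16 the adjusted p of the difference lay between 0.112 (Ethe1) and 0.721 (Oxsr1).

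The level of the falling genes was also read in the libraries of both labelled stages. The 270 genes together took 2.20% of all counts in PD16 MMI16 at the median (1.18 to 2.50%) and 8.15% in PD16 vehicle (6.30 to 9.73%), values that the choice of the genes fixes in direction. In GD21 MMI16 they took 4.44% (3.71 to 6.63%) and in GD21 vehicle 4.77% (3.87 to 5.08%). All PD16 MMI16 libraries lay below these GD21 libraries, and PD16 vehicle libraries lay above them but for 1 GD21 MMI16 library. The genes were chosen on their PD16 levels, which favours GD21 values in between. This order is therefore not a result about the stages. Sox9 averaged 13.4 ± 8.54 CPM in PD16 MMI16 and 139 ± 51.7 CPM in PD16 vehicle, and 37.2 ± 26.2 CPM in GD21 MMI16 and 30.4 ± 8.3 CPM in GD21 vehicle.

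**Figure D5:**
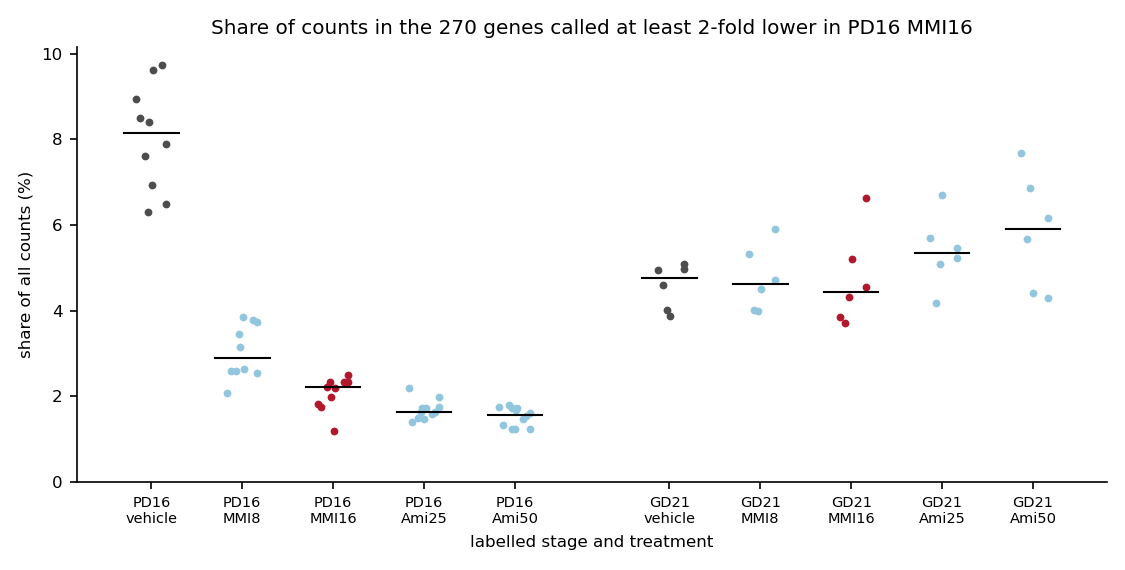
Share of all counts (y axis, %) held by the 270 genes called at least 2-fold lower in PD16 MMI16, in each library of the 10 groups (x axis; vehicle, MMI8, MMI16, and amitrole 25 and 50 mg/kg as Ami25 and Ami50, by labelled stage); points are libraries and bars are medians. Medians at PD16 are 8.15, 2.89, 2.20, 1.63 and 1.57% in that order, and at GD21 they lie between 4.44 and 5.91%. The embryonic globin shares of the same PD16 groups were 14.1, 16.1, 16.8, 0.180 and 0.130% at the median. The part of age in the order of these groups was not tested.

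The depth of the falls was also taken library by library, as the median over the 270 genes of the ratio to the PD16 vehicle mean. The choice of these genes fixes its direction at PD16. It ran over 0.144, 0.27 and 0.297 in MMI16 (lowest, median, highest library), against 0.781, 1.01 and 1.2 in the vehicle libraries. The lowest was MMI16 library 9. In GD21 libraries the same ratio to the GD21 vehicle mean was 0.798 to 1.37 in MMI16 and 0.839 to 1.08 in vehicle. The library titles carry numbers, which may mark how the samples were handled. These numbers were cut here into series, which the labels do not give. The share of counts held by the 270 genes is given within each series as a description, since the genes were chosen on these libraries. It was 1.18 to 2.50% in MMI16 and 6.93 to 7.89% in vehicle among libraries 1 to 20, 1.99 to 2.34% and 6.50 to 8.50% among libraries 21 to 40, and 1.82 to 2.19% and 6.30 to 9.73% among libraries 57 to 90. Within these series alone, 236, 302 and 294 genes were called lower and 5, 13 and 3 higher.

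The lower dose gave a comparison of level. Against MMI8, MMI16 libraries had 93 lower genes (1.9% of 4906) and 9 higher genes (0.183%). MMI8 against vehicle, which uses the same vehicle libraries, had 338 lower (6.89%) and 72 higher (1.47%). Over the 14 largest falls the log2 fold change of MMI16 over MMI8 ran from -1.41 (Tob1) to 0.28 (Vtcn1). These genes were chosen on the same MMI16 libraries, which favours lower values in MMI16 than in MMI8. Naa50 averaged 1633 ± 381 CPM in vehicle, 399.7 ± 97.9 CPM in MMI8 and 188 ± 68.6 CPM in MMI16 (SD, n = 10 each), and MMI16 over MMI8 was -1.15 on the log2 scale (SE 0.16, adjusted p = 2.48e-06). Tob1 averaged 286 ± 67.3, 73.1 ± 27.9 and 27.8 ± 21.0 CPM in the same order (-1.41, SE 0.25, adjusted p = 0.000105). Wtap averaged 937 ± 161, 175 ± 48.4 and 104 ± 29.7 CPM (-0.82, SE 0.13, adjusted p = 2.63e-05).

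In other falling genes a difference between the doses was not detected. Cirbp averaged 617 ± 223 CPM in vehicle, 80.8 ± 24.3 CPM in MMI8 and 60.9 ± 16.7 CPM in MMI16 (log2 fold change of MMI16 over MMI8 -0.48, SE 0.26, adjusted p = 0.465). Vtcn1 averaged 57.6 ± 13.7, 4.74 ± 3.39 and 5.94 ± 5.93 CPM in the same order (0.28, SE 0.50, adjusted p = 0.866). Between the doses Hnrnpa1 differed by -0.09 on that scale (SE 0.09, adjusted p = 0.746) and Pecam1 of -0.03 (SE 0.17, adjusted p = 0.965).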

How the data were processed

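RNA labelled rat testis was measured in 83 libraries by bulk RNA barcoding, per the labels' protocols. The authors deposited 1 table of raw, whole-number counts for 17483 gene symbols. The build rn6 and the aligner BWA 0.7.4.4 are named in the submitters' processing notes. How reads were counted (tool, annotation, strand, molecular barcodes) is not given in the sources used here, so reads of overlapping, antisense or near-identical genes may be shared, and reads beyond an annotated 3′ end may be missed.

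Counts were tested in R 4.3.3 with edgeR 4.0.16 (filterByExpr with a minimum count of 10, TMM factors, robust quasi-likelihood F tests, Benjamini-Hochberg adjustment over all genes tested). All 53 PD16 libraries in their 5 groups, those of amitrole among them, were fitted together. The 30 GD21 libraries were fitted likewise, and all 83 for the difference between stages. Single values were compared by a permutation test with 100000 resamples. The test was checked on simulated counts drawn independently for each library, which cannot speak to the spread between litters. CPM are counts scaled to the library total and intervals cover 95%. DESeq2 1.42.0 and the settings named in the closing section were the alternatives; edgeR's legacy fit was added after the data had been seen.

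Genes named are the 14 largest called falls and 8 largest called rises averaging at least 20 CPM in either group, up to 3 called members of each of 29 lists by adjusted p, and a panel of 12 genes; bare identifiers were left out. The members, lists and tests were chosen with earlier results of these data known. Further called members of a list are named after their values were seen. The values of 1 called gene are not reported here. Of the symbols, 15578 matched RefSeq rat names and 1556 matched as synonyms. No coordinates were converted: those printed are of GRCr8, not of rn6.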

Additional observations from a re-analysis of the deposited data

Results flagged for a closer look

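Within each group of 10 libraries, the highest or lowest library was examined for its distance from the others by Dixon's gap, in 122 groups of values. Chance alone gives about 1 in 20 where values are normally distributed. Levels were taken here without a log scale, so that rate may not hold. The gap was too wide in 18 of the 122 groups, and in each the library that stood apart was the highest. The MMI16 library with liver transcripts, number 9, had summed liver genes of 1688 CPM (group median 89.8). It was also the highest for Pnn (113 CPM, group median 43.9), Hmox2-ps1 (96.9 CPM, group median 27.4), Sod1 (672 CPM, group median 381), Rpl27 (4301 CPM, group median 2704). MMI16 library 10, with the lowest total, was the highest for Ppp1r10 (49.4 CPM, group median 24.7), Lrrc47 (84 CPM, group median 21.4), Srebf2 (129 CPM, group median 43), Hsph1 (148 CPM, group median 64.6), Th (272 CPM, group median 131), Pnmt (400.5 CPM, group median 175), Mki67 (198 CPM, group median 53.5). MMI16 library 31 was the highest for Ddc, at 107 CPM (group median 55.9).

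Among vehicle libraries, number 22 had the highest total count, 1052882 (group median 627048.5), and number 22 was the highest for Pnn (47.5 CPM, group median 16.8), number 4 was the highest for Oxsr1 (26.2 CPM, group median 9.53), number 59 was the highest for Crebbp (564 CPM, group median 225), number 4 was the highest for Thra (26.2 CPM, group median 8.58). What sets these libraries apart was not tested.

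The log2 fold change of MMI16 over vehicle differed between PD16 and GD21 in 34 of the named genes by edgeR's test of the difference, all of them lower at PD16. All 34 had been called lower at PD16 in the same libraries, which favours such differences. The differences, PD16 minus GD21, were -3.42 for Kcnd2, -3.74 for Sox9, -3.58 for Cirbp, -3.29 for Tob1, -3.52 for Qrich1, -3.76 for Jag1, -3.41 for Ythdf2, -3.17 for Vtcn1, -2.98 for Med26, -3.30 for Wtap, -3.19 for Tsc22d2, -3.33 for Naa50, -3.18 for Klhl26, -3.15 for Cwf19l1, -2.08 for Srebf2, -2.59 for Cpt1a, -2.38 for Dusp6. They were -3.16 for Jund, -2.04 for Dusp10, -1.40 for Hsph1, -1.42 for Hnrnpa1, -1.92 for Srsf9, -0.49 for Hnrnpk, -1.81 for Crebbp, -0.66 for Smarca2, -2.18 for Mcm4, -2.25 for Rrm2, -2.72 for Nfe2l1, -2.63 for Gsr, -1.02 for Gja1, -0.71 for Rpl27, -1.80 for Kdr, -2.19 for Pecam1, -2.99 for Mrc1.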

How the results depend on the processing

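No paired analysis was possible because the library numbers in the titles are all different, so that the groups share none. Each of the 14 largest falls kept its call and direction in the 12 other settings and in the 20 fits without 1 library; the weakest of these was Cirbp in libraries 57 to 90 alone (adjusted p = 0.00399). The count of lower genes was 346 to 369 without 1 library, that of genes at least 2-fold lower 265 to 277, and that of higher genes 31 to 58. Lower genes numbered 349 with DESeq2 and 427 with no filter, and 236 in libraries 1 to 20 alone, where vehicle had 2 libraries. Some of the other named falls lost their call in a single number series. In libraries 1 to 20 alone these were Ddc, Hnrnpk, Smarca2, Sod1, Gja1, Rpl27 and Rps25. In libraries 57 to 90 alone, where MMI16 had 2 libraries, they were Ddc, Rrm2, Sod1 and Rps25. In libraries 21 to 40 alone it was Ddc. Higher genes numbered 27 with no filter, 14 in a fit of the 20 compared libraries alone, and 5, 13 and 3 in libraries 1 to 20, 21 to 40 and 57 to 90 alone. Genes with a higher log2 fold change at PD16 than at GD21 numbered 12 with DESeq2's size factors, against 7. Without MMI16 library 9, left out for its Alb of over 200 CPM, the difference in mean total counts was -189212 (permutation p = 0.0364). Fbxw8 was at -0.067 in libraries 1 to 20 alone and Cgnl1 at -0.38 in libraries 57 to 90 alone, against 0.79 and 0.69; the cause was not tested. Hmox2-ps1 was not called with DESeq2 (adjusted p = 0.073). Dctd was called in every fit without 1 library but in none of the 3 number series alone. Depth limits the lower end: 1 count was 2.05 CPM at the MMI16 median.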
